A study of Rattus norvegicus with 6 samples.

Results

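The genes described here encode receptors by which macrophages take up or sense particles, namely 3 Fc gamma receptors (Fcgr1a, Fcgr2b, Fcgr3a), the scavenger receptors Msr1, Marco, Stab1 and Cd68, the lectin Siglec1, the complement receptor Vsig4 and the adhesion receptor Adgre1. They were chosen by name, as 10 genes of this class, with earlier results of these data known. Each was read from the array row that carries its symbol alone. The annotation used names such a row for 8 of the 10 genes, out of 14506 genes named in this way, and Msr1 and Stab1 were not analysed here. Each of the 8 had 1 row. The RNA came from cells freed from the long bones of Sprague Dawley pups, 2 to 5 days old, that then attached to plates coated with prothrombin (PT, from mouse) or osteopontin (OPN, from bovine milk). Replicates 1, 2 and 4 on PT and replicates 2, 3 and 4 on OPN were read on 1 array each, all of the same strain and age, and the labels give no treatment other than the coating. The labels name neither the sex of the rats nor whether animals were pooled, and the attached cells were not sorted by a marker.

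Fc gamma receptors bind the constant part of immunoglobulin G and so let macrophages engulf particles coated with antibody. Fcgr1a and Fcgr3a encode activating receptors that signal through the shared gamma chain (Fcer1g) and the kinase Syk, while Fcgr2b encodes the inhibitory receptor, which recruits phosphatases such as the product of Inpp5d. Scavenger receptors bind modified lipoproteins, bacteria and cell debris with little need for antibody. Osteoclasts and macrophages arise from common myeloid precursors and share some of these receptors, so that a gene of this class can be carried by either cell in bone.

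Promoter sequences are given for 3 of the genes, because they stand for the patterns seen below: Adgre1 fell on OPN, Fcgr3a lay lower without passing the test and Cd68 lay above 0. Each stretch is from RefSeq (build GRCr8), lies upstream of the annotated start, and is written 5′ to 3′ on the strand of the gene. The capitals mark GAGGAA, the core bound by PU.1, a transcription factor of myeloid cells, or its complement.
Adgre1, chr9:2329190-2329397, plus strand: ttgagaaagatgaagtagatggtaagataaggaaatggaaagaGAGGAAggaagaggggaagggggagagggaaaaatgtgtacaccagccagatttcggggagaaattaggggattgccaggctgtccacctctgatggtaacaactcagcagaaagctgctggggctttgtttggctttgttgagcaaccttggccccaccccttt
Fcgr3a, chr13:85782386-85782635, plus strand: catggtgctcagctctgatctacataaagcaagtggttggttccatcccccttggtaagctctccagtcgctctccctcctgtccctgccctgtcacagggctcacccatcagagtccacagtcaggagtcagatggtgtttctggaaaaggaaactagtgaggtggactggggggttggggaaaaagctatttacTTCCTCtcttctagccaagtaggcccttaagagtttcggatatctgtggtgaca
Cd68, chr10:54882442-54882691, minus strand: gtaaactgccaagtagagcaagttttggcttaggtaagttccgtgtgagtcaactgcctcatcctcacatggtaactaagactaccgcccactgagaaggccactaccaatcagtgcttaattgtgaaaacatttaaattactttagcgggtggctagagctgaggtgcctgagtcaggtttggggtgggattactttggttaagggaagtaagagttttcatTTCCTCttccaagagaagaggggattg
The Adgre1 stretch ends at 208 bases, where the annotated gene begins, while the others span 250 bases. GAGGAA began 165 bases before the end of the printed Adgre1 stretch, on the gene's strand. On the opposite strand it began 54 bases before the end of the Fcgr3a stretch and 27 bases before that of Cd68. Searched on both strands, it was present in the 250 bases before the table's start site in 5 of the 6 receptor genes that the table holds (Fcgr3a, Marco, Stab1, Cd68 and Adgre1, but not Vsig4), against 23.3% of all 33469 such windows, where a gene can have several. The E-box CACGTG, which reads the same on both strands, was found in none of the 6 windows and in 5.59% of all windows. The MAF half-site TGCTGA, also searched on both strands and sharing no match with GAGGAA, was found in the windows of Stab1 and Adgre1 and in 15.1% of all windows. A match is a description of letters only, and it was present both in a gene that fell and in genes that did not.

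Values are linear PLIER signals, where PLIER is a method that summarises the probes of a row, and differences are OPN minus PT of log2(signal + 16). Rows were tested with limma, with p-values adjusted over all 29215 rows, and rose and fell are used of rows with an adjusted p below 0.05. Background was not told apart from signal row by row, so how much of a dim signal it makes up is unknown. The number of arrays limits the precision, and p-values measure the spread between these arrays, which may be technical, because the labels do not say that they came from separate preparations. Array medians lay between 207.8 and 231.4 units. Marker lists of other cells differed between these arrays. Their median log2 differences were 2.46 over 11 osteoblast genes, 0.73 over 11 osteoclast genes, 0.59 over 13 endothelial genes and -0.24 over 9 erythroid genes. Of the 9 erythroid genes 2 fell and 0 rose, against 0.770% and 5.05% of all rows. All 9 lay below 0, and 7 were lower at an unadjusted p below 0.05, against 4.82% of all rows. Without any 1 array other than PT replicate 1, 0 of the 9 fell. In bulk RNA, fewer cells of a type and less RNA per cell cannot be told apart.

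The comparison asks which of these macrophage receptors are lower in OPN-adherent than in PT-adherent cells and which hold their level. The adhesion receptor Adgre1 and the high-affinity Fc receptor Fcgr1a fell on OPN, by 1.495-fold and 1.37-fold. Fcgr3a, Siglec1 and Marco lay lower without a call, and Cd68, Vsig4 and Fcgr2b lay above 0 without a call. In limma's test 2 of 8 genes fell, while 0.770% of all rows were called lower, and 0 rose, while 5.05% of all rows were called higher. At an unadjusted p below 0.05 the lower genes numbered 4 and the higher ones 0, against 4.82% and 12.8% of all rows. Among the 14506 named genes, 162 were called lower and 1105 higher, and 796 and 2459 had an unadjusted p below 0.05 in these directions. The median difference of the 8 genes was -0.20, against 0.04 over all 14506 named genes. The arrays of the coatings did not overlap in 4 genes that were lower on OPN and in 1 that was higher, while 7.40% and 16.3% of all rows showed this in these directions.

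**Figure D1:**
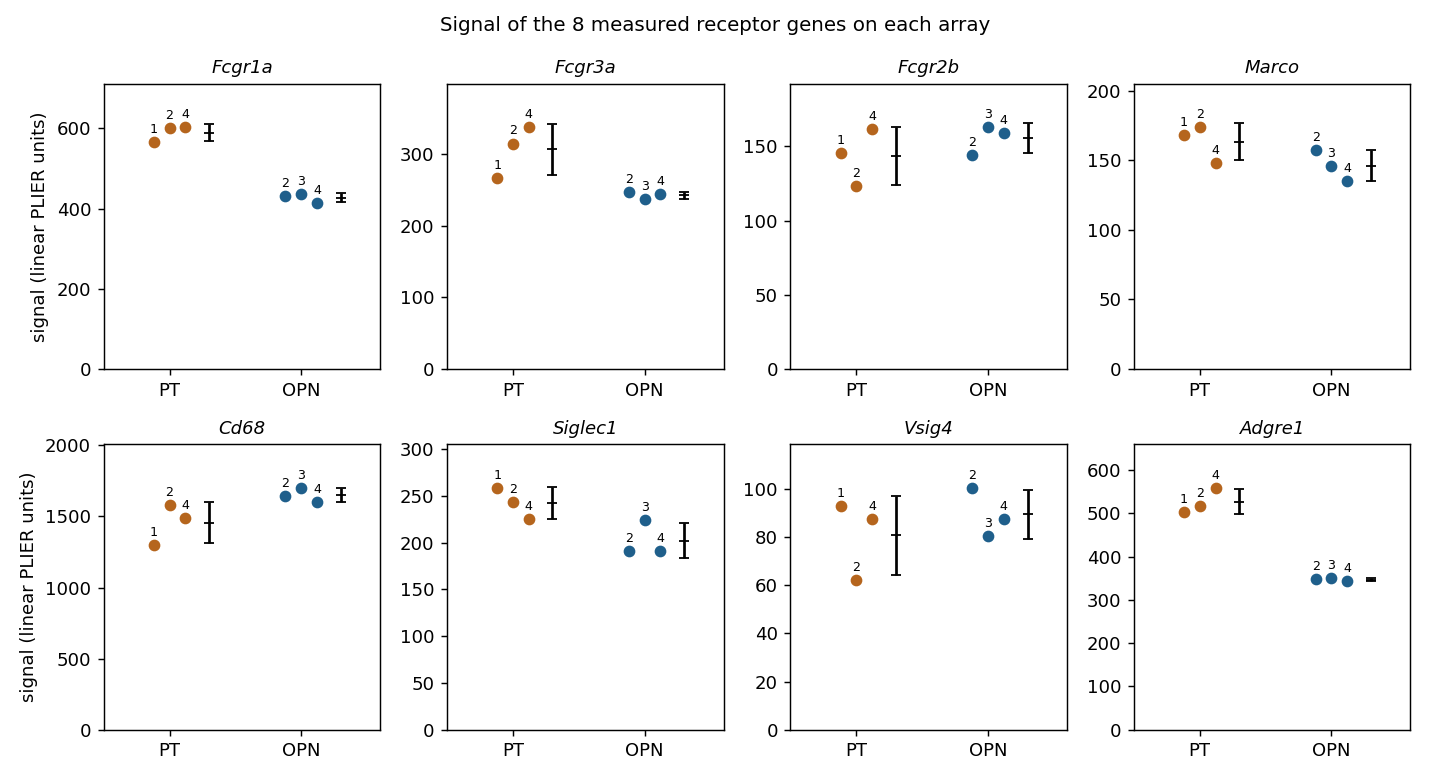
Signal of each receptor gene (linear PLIER units, vertical axis from 0, own scale per panel) on the 3 PT and 3 OPN arrays, with the replicate number above each point and the mean ± SD beside the points. All OPN arrays of Adgre1 (343.2 to 349.9) and Fcgr1a (413.5 to 435.6) sit below all PT arrays, whereas the arrays of Fcgr2b, Marco and Vsig4 overlap.

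Among the Fc receptors, Fcgr1a, which binds monomeric immunoglobulin G with high affinity, had signals of 565.5, 600.5 and 603.1 on PT replicates 1, 2 and 4 and of 432.1, 435.6 and 413.5 on OPN replicates 2, 3 and 4. Each OPN array lay below each PT array, by far more than the spread within a coating. The means were 589.7 ± 21.0 on PT and 427 ± 11.9 on OPN (SD, n = 3), a log2 difference of -0.45 (SE 0.07, limma adjusted p = 0.00456). By size it ranked 49 among the 162 named genes that were called lower. The call held without any 1 of the arrays (adjusted p between 0.0101 and 0.0249).

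Fcgr3a, an activating receptor of lower affinity, had 267.6, 315.2 and 338.1 units on PT and 247.2, 237.7 and 244.4 on OPN, in the same order of replicates. All OPN arrays lay below all PT arrays, but PT replicate 1 stood close to them and the PT arrays were spread widely. The log2 difference of -0.31 (SE 0.09, 95% interval -0.52 to -0.10) did not pass (limma adjusted p = 0.101). Without PT replicate 1 it was -0.40 and passed (adjusted p = 0.0256).

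Fcgr2b, the inhibitory receptor, had 145.6, 123.0 and 161.6 units on PT and 143.9, 163.0 and 159.2 on OPN. These ranges overlap, with PT replicate 2 as the lowest array, and the log2 difference was 0.11 (SE 0.10, 95% interval -0.12 to 0.34, limma adjusted p = 0.665). The interval does not reach the difference of Fcgr1a or that of Fcgr3a, but this leaves out the error of those genes. It overlaps the interval of Fcgr3a, and the direct tests follow in the next paragraph. Of the RefSeq genes in the table used, Fcgr2b and Fcgr3a are direct neighbours on their chromosome. Rows that carry the names Fcgr2a and Fcgr2al1 together, near relatives in the same cluster, were not used, and probes shared between such relatives cannot be told apart here.

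The balance of activating and inhibitory receptors was tested within each array by subtracting the log2 value of Fcgr2b. Fcgr1a stood above Fcgr2b by 1.85, 2.15 and 1.80 on the PT arrays and by 1.49, 1.33 and 1.29 on the OPN arrays, so that the ratios of the coatings did not overlap. The ratio was lower on OPN by a log2 difference of -0.56 (SE 0.15, limma adjusted p = 0.0109), in a fit that called 0.760% of rows lower. For Fcgr3a the ratio differed by -0.42 (SE 0.15, adjusted p = 0.141), with 0.81, 1.25 and 1.00 on PT and 0.72, 0.50 and 0.57 on OPN. Every row of this fit shares the spread of Fcgr2b, and with each row's own spread in place of the moderated one the Fcgr1a ratio had an adjusted p of 0.389. Its call was also lost without PT replicate 2, OPN replicate 3 or OPN replicate 4 (adjusted p of 0.0944, 0.116 and 0.119).

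Genes of Fc receptor signalling were also counted, in a list that holds the receptor genes Fcgrt, Fcer1a and Fcer2 beside downstream genes. Among 24 measured there was 1 that rose and 1 that fell, against 5.05% and 0.770% of all rows. The median log2 difference of the 24 genes was -0.01. At an unadjusted p below 0.05 there were 7 lower and 2 higher, against 4.82% and 12.8% of all rows. The eBayes trend called 5 of the 24 lower, in a fit that called 508 of the 29215 rows lower, against 225 as reported. Lat2, an adaptor of immune receptor signalling, rose by 0.63 (SE 0.10, limma adjusted p = 0.00674). Cybb, the membrane subunit of the phagocyte oxidase that produces superoxide, fell by 0.31 on the log2 scale (adjusted p = 0.0329). Leaving out any 1 of the 6 arrays ended the call of Cybb (adjusted p between 0.0662 and 0.155).

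The gamma chain gene Fcer1g had 2034 ± 210 units on PT and 1607 ± 108 on OPN (SD, n = 3), a log2 difference of -0.33 that did not pass (limma adjusted p = 0.0933) and passed without PT replicate 1 (adjusted p = 0.0337). It also passed with an offset of 64, with a filter on dim rows or with the eBayes trend (adjusted p of 0.0398, 0.0475 and 0.0258). Its size was similar to that of Fcgr3a, and in both genes the call appeared without PT replicate 1. Syk lay at -0.18 (adjusted p = 0.227). The phosphatase genes Inpp5d and Ptpn6, which act with inhibitory receptors, lay at -0.05 (SE 0.07) and 0.01 (SE 0.09). Ptpn6 moved below 0 with equal array medians, quantile normalisation or the replicate block, and also without PT replicate 1 or OPN replicate 3.

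Of the scavenger receptors, Cd68, a heavily glycosylated protein of lysosomes and late endosomes that is used as a pan-macrophage marker and is also made by osteoclasts, had signals of 1297, 1580 and 1490 on PT and 1646, 1701 and 1605 on OPN. The OPN arrays all lay above the PT arrays, by little in the case of PT replicate 2. The log2 difference of 0.18 (SE 0.09, 95% interval -0.01 to 0.38) did not pass (limma adjusted p = 0.319). The summed signal of the 11 osteoclast markers lay between 11780 and 14120 on PT and between 29650 and 33200 on OPN. Of the 11, 8 were called higher and 0 lower, against 5.05% and 0.770% of all rows. Most of the sum on PT came from Car2, with means of 8897 units on PT and 7673 on OPN, the only 1 of the 11 below 0. The part of osteoclast RNA in the Cd68 signal was not tested.

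Marco, a class A scavenger receptor that binds bacteria and inhaled particles, had 168.2, 173.9 and 148.4 units on PT and 157.4, 145.8 and 135.4 on OPN. PT replicate 4 and OPN replicate 2 lay inside the range of the other coating. The difference was -0.15 (SE 0.09, 95% interval -0.34 to 0.05, limma adjusted p = 0.449).

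Other scavenger receptors split by direction. Among 18 measured there were 3 that rose and 3 that fell, against 5.05% and 0.770% of all rows. The median of the 18 genes was -0.01 and turned to 0.004 without OPN replicate 4. The collectin-type receptor Colec12 had 216 ± 35.8 units on PT and 637 ± 61.4 on OPN (SD, n = 3), a 2.83-fold difference (limma adjusted p = 0.000142). Scara3 was 2.04-fold and Scarf2 1.41-fold higher (adjusted p = 0.000212 and 0.00428).

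The genes that fell were the haemoglobin receptor Cd163 (-0.87), the mannose receptor Mrc1 (-0.79) and Cd5l (-0.42), a secreted scavenger protein of macrophages, with an adjusted p of at most 0.0103. Without OPN replicate 2 the call of Cd5l was lost (adjusted p = 0.0588). On the same arrays the summed signal of the 11 osteoblast markers lay between 11510 and 12380 on PT and between 62440 and 70080 on OPN, and that of the 13 endothelial markers between 2862 and 3043 and between 4252 and 4485. Whether these cells carried the scavenger receptors that rose was not tested.

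Siglec1, a sialic acid-binding lectin of resident macrophages, had 258.4, 243.1 and 224.9 units on PT and 191.0, 223.8 and 191.0 on OPN. The arrays did not overlap, but OPN replicate 3 came within about a unit of PT replicate 4. The difference of -0.25 (SE 0.09, 95% interval -0.45 to -0.05) did not pass (limma adjusted p = 0.178).

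Vsig4, a complement receptor of the immunoglobulin family on resident macrophages, was the only measured gene of the group with a mean signal below 100 units. It had 92.7, 62.1 and 87.3 on PT and 100.4, 80.4 and 87.7 on OPN, with PT replicate 2 far below the rest. The difference of 0.14 (SE 0.13, 95% interval -0.17 to 0.44, limma adjusted p = 0.689) turned to -0.01 without PT replicate 2. The lower bound of this interval lies above the difference of Siglec1 and below that of Marco. This leaves out the error of those genes, and Vsig4 was not tested against them directly.

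Adgre1, the adhesion G protein-coupled receptor that marks mature tissue macrophages, had 504.3, 518.0 and 559.2 units on PT and 347.7, 349.9 and 343.2 on OPN. The OPN arrays were nearly alike, and all lay well below the PT arrays. The log2 difference of -0.58 (SE 0.07, limma adjusted p = 0.00134) ranked 21 among the 162 named genes that were called lower. The call held without any 1 of the arrays (adjusted p between 0.0039 and 0.00967).

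**Figure D2:**
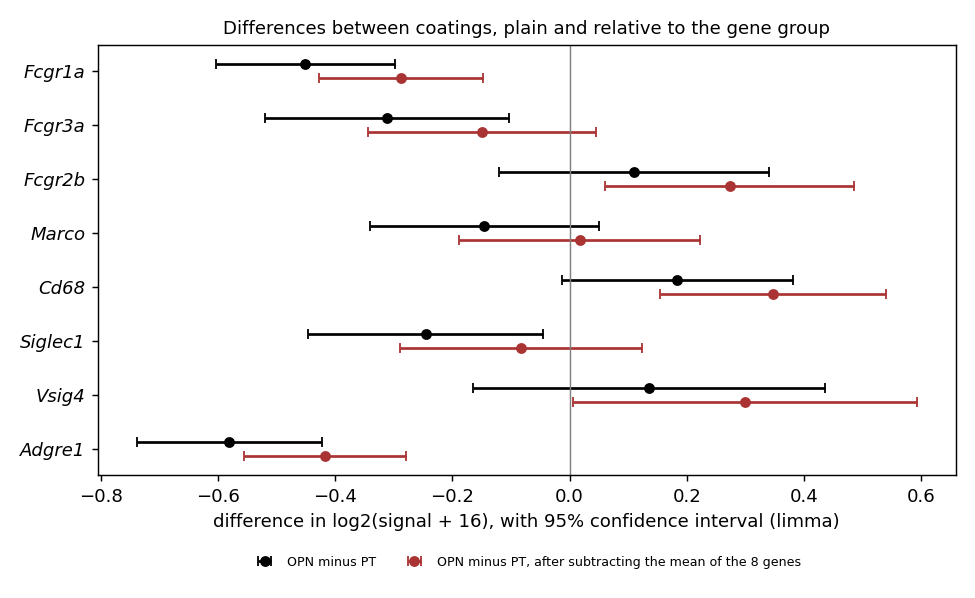
Differences between coatings in log2(signal + 16) with 95% confidence intervals from limma, OPN minus PT (black) and the same after the mean of the 8 genes was subtracted on each array (red). Adgre1 and Fcgr1a lie to the left of 0 on both scales, while Cd68 reaches 0.35 relative to the group mean.

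Because a call in one gene and not in another does not show that they differ, each gene was also tested against the mean of the 8 genes on the same array. Relative to that mean, Adgre1 was lower on OPN by -0.42 (SE 0.06, limma adjusted p = 0.0027) and Fcgr1a by -0.29 (SE 0.06, adjusted p = 0.0127), in a fit that called 0.383% of rows lower. Cd68 was higher by 0.35 (SE 0.08, adjusted p = 0.0202), in a fit that called 31.0% of rows higher, since the mean subtracted there was itself lower on OPN. The 8 deviations from the mean sum to 0, so a gene above it is in part set there by those below.

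The call of Cd68 relative to the mean rested on most of the arrays. It was lost without PT replicate 4, OPN replicate 2, OPN replicate 3 or OPN replicate 4 (adjusted p between 0.051 and 0.0638) and with each row's own spread (adjusted p = 0.0639). Fcgr2b lay 0.27 above the mean (adjusted p = 0.0545) and Vsig4 0.30 above it (adjusted p = 0.0994). Fcgr3a (-0.15), Siglec1 (-0.08) and Marco (0.02) lay near the mean, with adjusted p of 0.186, 0.463 and 0.877. Without PT replicate 1 the calls relative to the mean numbered 5 in place of 3, with Fcgr3a and Vsig4 added (adjusted p of 0.0365 and 0.0472).

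Surface receptors of macrophages outside the group, not all of which are confined to these cells, also leaned lower. There were 18 of 24 below 0, against 5531 of the 14506 named genes. Of 24 measured, 4 fell and 0 rose, against 0.770% and 5.05% of all rows. At an unadjusted p below 0.05 there were 10 lower and 1 higher, against 4.82% and 12.8% of all rows. The median was -0.14. The 1 higher gene was the integrin chain Itgam, at 0.24 (limma adjusted p = 0.203), whose arrays did not overlap between the coatings. Csf1r also lay above 0, at 0.12 (adjusted p = 0.573). Adgre4, a relative of Adgre1 in the same receptor family, had 215.2 ± 7.22 units on PT and 143.9 ± 13.8 on OPN (SD, n = 3), a log2 difference of -0.53 (limma adjusted p = 0.00494). It kept its call without any 1 of the arrays, at an adjusted p of at most 0.0299, and lost it with the replicate block (adjusted p = 0.0843).

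Cd4, which rat macrophages also carry, fell by 0.41 on the log2 scale (limma adjusted p = 0.00822), the integrin chain Itgal by 0.40 (adjusted p = 0.0262) and the endotoxin co-receptor Cd14 by 0.35 (adjusted p = 0.0479). The call of Itgal was lost without PT replicate 2, PT replicate 4, OPN replicate 2 or OPN replicate 4 (adjusted p between 0.0632 and 0.105). That of Cd14 was lost without any 1 array other than PT replicate 1 (adjusted p between 0.0861 and 0.189) and with an offset of 1 (adjusted p = 0.0683). The count of genes that fell was 2 without PT replicate 2, PT replicate 4, OPN replicate 2 or OPN replicate 4.

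**Figure D3:**
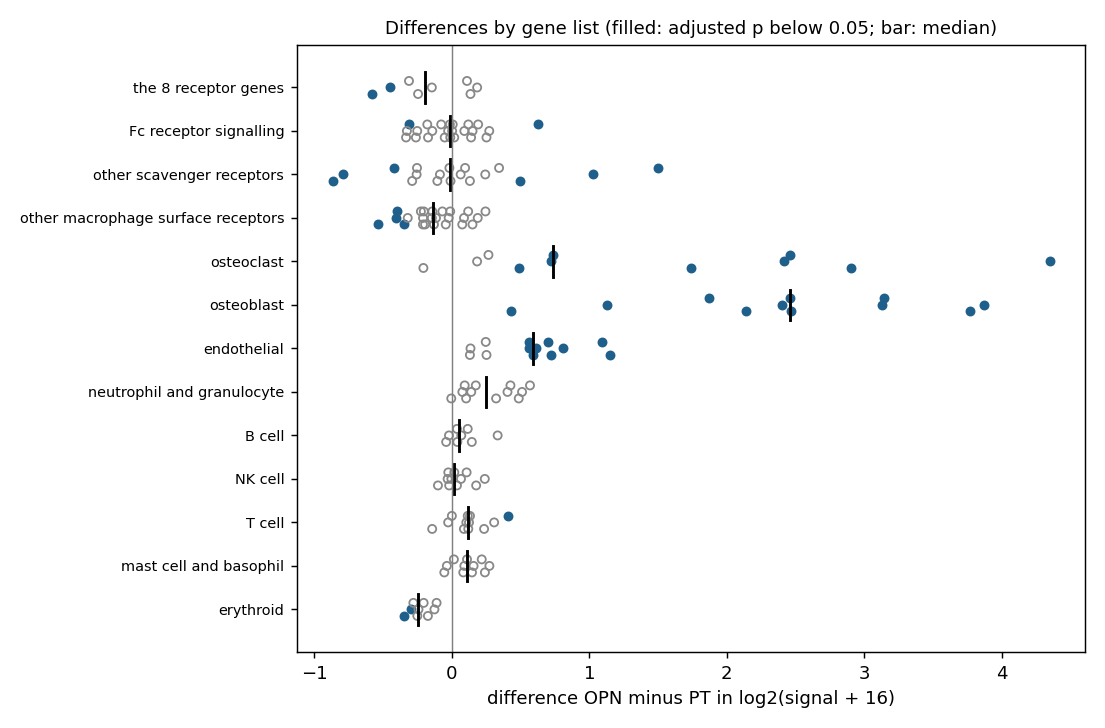
Differences between coatings in log2(signal + 16), OPN minus PT, for each measured gene of the receptor group and of 12 other lists, with the median of each list as a bar and filled points for an adjusted p below 0.05. The receptor genes lie between -0.58 and 0.18, with a median of -0.20, while the osteoclast and osteoblast lists reach beyond 3 on the right.

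Markers of other leukocytes, some of which carry Fc receptors, were also counted. As the background, 5.05% of all rows were called higher, and 12.8% were higher at an unadjusted p below 0.05. Of the 14506 named genes, 2459 were higher at that unadjusted p. The 12 neutrophil and granulocyte genes had a median of 0.25, with 0 called by limma, 5 higher at an unadjusted p below 0.05, and summed signals of 11230 to 18060 on PT and 16510 to 18640 on OPN. Without PT replicate 4, 6 of the 12 were called higher and their median was 0.38. For the 8 measured B cell genes, whose cells carry Fcgr2b, the median was 0.05 with 0 called and 1 higher at an unadjusted p below 0.05, and the summed signals were 3129 to 3610 and 3468 to 3654. Of these 8, 1 was called higher without PT replicate 4, where the median was 0.16, and the median was -0.002 without PT replicate 1. The 11 NK cell genes had a median of 0.02 with 0 called and 2 higher at an unadjusted p below 0.05, and the 11 mast cell and basophil genes 0.11 with 0 called and 2 higher. Of 12 T cell genes 1 rose, and 3 were higher at an unadjusted p below 0.05, with a median of 0.12. Which of these markers lay above background is not known, and their part in the Fc receptor signals was not tested.

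**Figure D4:**
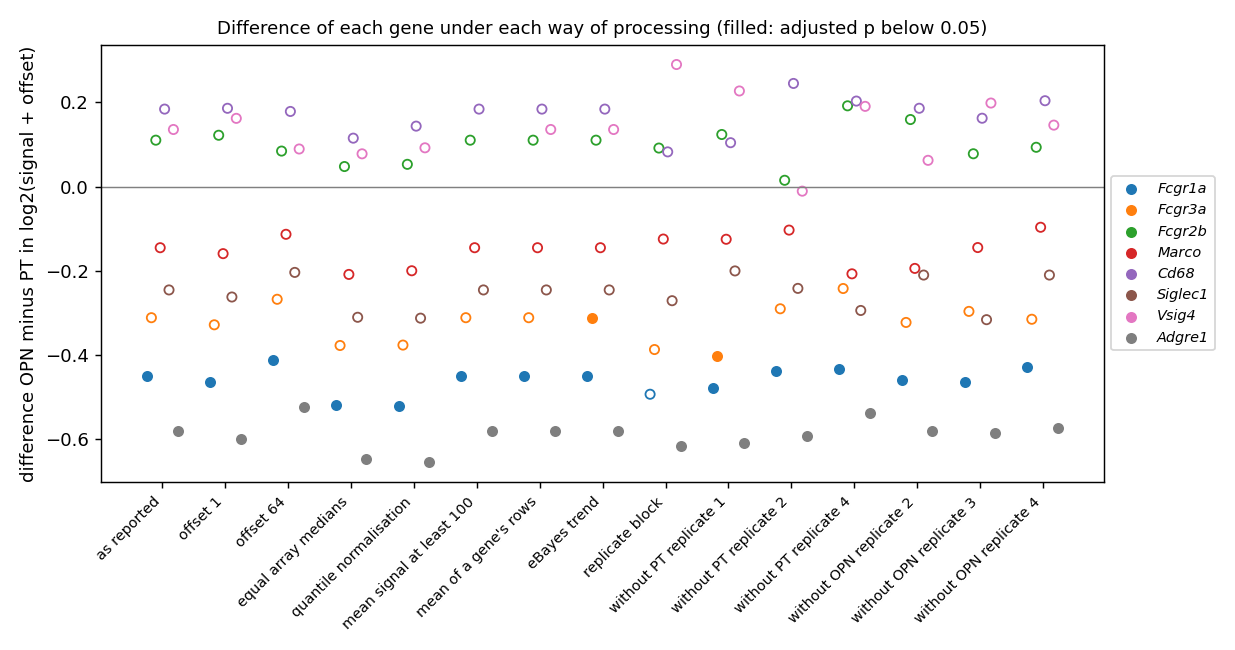
Difference between coatings (log2, OPN minus PT) of each receptor gene as reported and under the 14 other ways of processing, with filled points for an adjusted p below 0.05. Adgre1 stays between -0.66 and -0.52 and is filled throughout, Fcgr1a is open with the replicate block, and Fcgr3a is filled with the eBayes trend and without PT replicate 1.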

How the data were processed

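Targets made from 300 ng of RNA of the attached cells were hybridised to Affymetrix Rat Gene 1.0 ST arrays, per the labels' protocols. The deposited table gives 1 linear intensity per row and array, made with Affymetrix Expression Console and PLIER per the submitters' processing notes. The sources used here do not give versions, background correction, scaling or build. No deposited value is below 0.

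Groups and replicate numbers came from the sample titles. Rows were named where the platform annotation gives 1 symbol, and the Entrez identifiers of the 8 measured genes matched the same symbols in the GRCr8 gene table. For list genes with several rows, the row with the highest mean was used. All 29215 rows, unfiltered, were fitted as log2(intensity + 16) with lmFit and eBayes of limma 3.58.1 (R 4.3.3), with Benjamini-Hochberg adjustment. The fit was repeated after subtracting the mean of the 8 genes, or Fcgr2b, from each array. The code of the test was run on simulated data with independent normal noise in each row. Such data hold no effect shared by an array, so the run does not show how the test performs on these arrays.

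The genes and lists were chosen with earlier results of these data known. Named list genes are up to 4 called genes per direction and list with the smallest p, and Fcer1g, Syk, Inpp5d and Ptpn6. Itgam, Csf1r and Car2 are named as genes that went against their list, and Fcgrt, Fcer1a and Fcer2 as receptors in theirs. Called cell type markers were summarised by list. The numbers 2 and 4 are shared by the groups, but no label says what they mark. Alternatives changed the offset, scaling, filter, row choice, test, block and arrays.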

Additional observations from a re-analysis of the deposited data

How the results depend on the processing

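The direction of Fcgr1a, Fcgr3a, Siglec1, Marco, Adgre1, Cd68 and Fcgr2b was kept under all 14 alternatives, and that of Vsig4 under 12 of the 13 that kept its row, with values between -0.011 without PT replicate 2 and 0.227 without PT replicate 1 when 1 array was left out. Scaling moved the median difference of all rows from 0.03 to -0.04 with equal array medians and -0.03 with quantile normalisation. The number of receptor genes that fell was 2 to 3 when any 1 array was left out, 3 with the eBayes trend and 2 under the other alternatives except the replicate block, and 0 rose under any of the 14. In the lists, the genes that fell numbered 0 to 5 in Fc receptor signalling, 2 to 6 among other scavenger receptors and 0 to 6 among other surface receptors over the 14 alternatives. The rows called lower in the same fits ranged from 48 with the replicate block to 745 with quantile normalisation, against 225 as reported. They numbered 508 with the eBayes trend and 551 with equal array medians. An offset of 64, the filter on dim rows and the eBayes trend each called 1 B cell gene higher, and the filter 1 mast cell and basophil gene. These fits called 1731, 1754 and 1857 rows higher, against 1475 as reported. Genes called relative to the group mean numbered 2 to 5 when any 1 array was left out, where Marco lay between -0.066 without PT replicate 4 and 0.074 without PT replicate 2, with -0.024 without OPN replicate 2. Of Fcgr1a and Fcgr3a, 0 to 1 was called relative to Fcgr2b when any 1 array was left out, 2 with an offset of 64, and 0 without moderation of the spread, an alternative chosen after seeing the data. Fcgr3a passed with the eBayes trend (adjusted p = 0.0473).

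Over all rows, arrays that share a number did not deviate together (correlations of -0.08 for number 2 and 0.07 for number 4). This cannot exclude a shared preparation, because many of the rows may hold mostly noise. The number was not taken as a pairing because no label says what it marks. With the replicate number as a block, on the 4 arrays that share one, 1 gene fell (Adgre1) and 1 was called in all, 1 was called relative to the group mean, and 2 relative to Fcgr2b. Fcgr1a then had a difference of -0.49 (adjusted p = 0.0872). In the lists of Fc receptor signalling and of other surface receptors 0 genes were called with the block. Among the other scavenger receptors 2 fell and 2 rose. That fit has fewer arrays and called 48 rows lower and 618 higher, against 225 and 1475. Depth in the sense of reads does not apply, and signal over background is not known.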
